A study of Zea mays with 12 samples.

Results

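Transcripts of 3 maize genes that serve mitochondria or remove hydrogen peroxide, aox1, phb3 and CAT3, were followed in immature ears of the inbred lines B73 and Mo17 and of the hybrids between them, made in both directions. In a cross such as B73xMo17 the seed parent is written first, and Mo17xB73 is its reciprocal. The members were all probe sets whose gene bears one of these names as symbol or synonym in the platform's probe annotation or in the RefSeq gene table, which gave 4 of 17621 probe sets. A probe set is the group of probes that reports a transcript on the array. The name aox1 is borne by 2 NCBI genes, 542073 and 542074, each with 1 probe set. The second is also listed as Aox and aox2 and is called Aox here. The others are phb3 (541817) and CAT3 (542370), also with 1 probe set each. Each genotype was represented by 3 arrays, each labelled as a biological replicate made from a pool of 6 field-grown ears freed of husks and silks, the shortest 3.7 mm and the longest 5.4 mm. No member shared its array cluster number with another probe set of the array (0 found).

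The alternative oxidase encoded by aox genes sits in the inner mitochondrial membrane and passes electrons from ubiquinol straight to oxygen, which bypasses the proton-pumping complexes of the respiratory chain and limits the formation of reactive oxygen. Prohibitins, such as the product of phb3, assemble into ring-shaped scaffolds in the same membrane and are abundant in dividing plant tissue. Catalases break down hydrogen peroxide. In maize, CAT3 is the catalase isozyme that is found with mitochondria, and its transcript is known to follow a daily rhythm. Immature ears consist largely of meristems and young spikelets, tissue with a high demand for respiration.

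The arrays were unequally bright, with median deposited signals from 123 to 231, so every array was scaled to a common median before levels were compared. Signals are given on this scale and are relative to the array, not to the number of transcripts. Signals under a floor of 12.2 were treated as being at the floor. B73 replicate 2 stood apart at the low end: 527 probe sets rose above the floor on this array alone, against 6 to 65 on each other array. Of 13 listed ear marker genes 11 were found, and 12 of their 13 probe sets were kept for the tests. Their summed signal was 8466 to 9442 in B73 and 7021 to 7899 in Mo17, with 8386 to 8666 in B73xMo17 and 8812 to 9105 in Mo17xB73. The summed signal of 5 photosynthetic marker genes was 1281 to 1897 in B73 and 1827 to 1959 in Mo17, with 1547 to 1876 and 1647 to 1726 in the hybrids, and 0 of 3 pollen probe sets were kept. Of 11 probe sets of endosperm marker genes 5 were kept. The summed signal of the 11 was 792 to 870 in B73 and 751 to 839 in Mo17, with 794 to 832 in B73xMo17 and 825 to 934 in Mo17xB73. The part of these marker differences in the results below was not tested. An array reads hybridisation to its probes, so a difference in transcript level and a difference in sequence under the probes cannot be told apart between B73 and Mo17. In whole ears, fewer cells that express a gene and less transcript in each cell cannot be told apart either.

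All 3 genes with a measurable signal ran highest in B73 and lowest in Mo17, with both hybrids in between, but the hybrids did not sit at the same place between the inbreds. The mean hybrid lay above the midparent for phb3 and below it for CAT3 and aox1, but phb3 and aox1, the genes tested there, did not pass, and 1 of 6 hybrid arrays of each fell on the other side. The parental differences of phb3 and aox1 and the departure of CAT3 from the parental mean are the values for which the genes were chosen. They are given as descriptions, without a test.

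**Figure D1:**
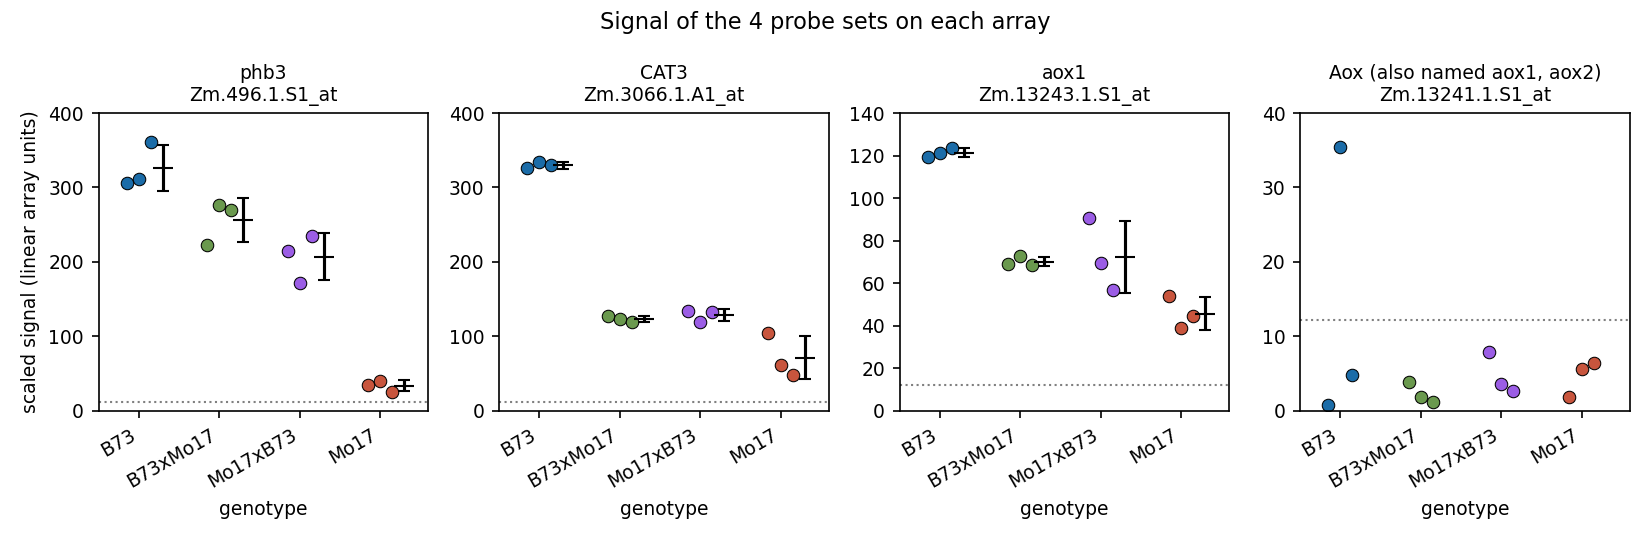
Scaled signal (y axis, linear array units, a separate scale in each panel) of the 4 probe sets by genotype. Each point is 1 array, with replicates 1 to 3 from left to right; bars show the mean ± SD of 3 arrays; the dotted line is the floor of 12.2. In the first 3 panels B73 is above every other genotype and Mo17 below, and in the last panel only B73 replicate 2 is above the floor.

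The prohibitin gene phb3 showed the widest parental gap of the 3. Its signal was 306, 311 and 361 on the B73 arrays (mean 326 ± 30.4 SD, n = 3) and 35.0, 39.7 and 25.6 on the Mo17 arrays (33.4 ± 7.20). It was 222, 276 and 270.0 in B73xMo17 (256 ± 29.7) and 214, 172 and 234 in Mo17xB73 (207 ± 32.0). The inbreds were far apart on every array, and every hybrid array fell between them, well above Mo17. Between single arrays, B73 exceeded Mo17 by 7.7-fold to 14.1-fold. The log2 difference was 3.31 ± 0.17 (SE), a 9.88-fold difference, which ranked 176th among the 2170 probe sets called higher in B73. The size of this gap rests on low Mo17 signals. With the floor raised to the 40th percentile, at 81.2, all 3 Mo17 arrays of phb3 were at it, and the log2 difference was 2.00. The order of the means was B73, B73xMo17, Mo17xB73 and Mo17. The arrays of the reciprocal hybrids overlapped, whereas the lowest B73 array lay above all hybrid arrays and the lowest hybrid array above all Mo17 arrays.

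CAT3, which was not chosen on the parental contrast, was tested there. Its signal was 325, 334 and 329.5 in B73 (329.8 ± 4.51) and 104, 61.5 and 48.6 in Mo17 (71.4 ± 29.0). The hybrids were at 128, 123 and 119 in B73xMo17 (123 ± 4.40) and at 135, 119.8 and 133 in Mo17xB73 (129 ± 8.10). The B73 arrays were nearly identical and stood far above the rest, while the Mo17 arrays were the most scattered of any genotype, with a coefficient of variation of 40.7% against 1.37% in B73. CAT3 was higher in B73 than in Mo17 by 2.28 ± 0.21 on the log2 scale (SE), or 4.87-fold, with an adjusted p of 7.32e-07 in limma. Among all probe sets tested, 41% were called between the inbreds with 19.5% higher and 21.5% lower in B73, so a call in this comparison is common. As deposited, without scaling, 25.6% were called: 20.5% were called higher and 5.07% lower. The share of calls that were higher in B73 thus went from 47.6% to 80.2%. Scaling multiplies an array by a single factor, so leaving it out shifted log2 differences between the inbreds about alike for signals above the floor. The median log2 difference of all probe sets was -0.05 scaled and 0.28 as deposited. The call of CAT3 held without each single array, with differences from 2.04 to 2.59 and adjusted p up to 8.99e-06. The parental arrays of this test also enter the midparent on which CAT3 was chosen. Mo17 replicate 1, the dimmest array as deposited, gave the highest of the Mo17 values before scaling as well (81.0 against 59.6 and 52.0). Without it the difference was 2.59.

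The aox1 probe set of gene 542073 had a lower and flatter profile. Its signal was 119, 121 and 123 in B73 (121 ± 2.00) and 53.9, 38.7 and 44.5 in Mo17 (45.7 ± 7.65). It was 69.2, 72.8 and 68.5 in B73xMo17 (70.1 ± 2.32) and 90.5, 69.2 and 56.8 in Mo17xB73 (72.2 ± 17.1). All B73 arrays were above all hybrid arrays, and all hybrid arrays above all Mo17 arrays. The reciprocal hybrids overlapped, for aox1 as for CAT3, and for aox1 Mo17xB73 was the more scattered. The log2 difference between the inbreds was 1.42 ± 0.19, or 2.68-fold. This probe set was kept for the tests because it exceeded the 40th percentile of its array on 4 arrays, all 3 of B73 and 1 of Mo17xB73, so it passed through the genotype in which it was high. phb3 exceeded that level on 9 arrays and CAT3 on 10. For all 3 genes the B73 and Mo17 arrays did not overlap, which held for 49.4% of all probe sets tested and, for phb3 and aox1, follows from how they were chosen.

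The other probe set, Aox, gave no measurable level. Its scaled signal was 35.4 on B73 replicate 2 and from 0.797 to 7.85 on the other 11 arrays, all of which were under the floor. It was not kept for the tests. The array on which it rose above the floor is the one with 527 such probe sets of its own. The gene aox3, another alternative oxidase, was under the floor on all 12 arrays, with signals from 0.375 to 7.10. Of the probe sets named as alternative oxidase in the annotation, that of gene 542073 was therefore the one with a signal above the floor on more than 1 array.

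The hybrids were next set against the midparent, the mean of the parental signals on the linear scale, which is the level that equal contributions from both parents would give. The midparent of phb3 was 55.1% of the B73 level, and the hybrids reached 78.6% of B73 in B73xMo17 and 63.5% in Mo17xB73. The mean hybrid was above the midparent by 0.35 ± 0.14 on the log2 scale (95% interval 0.05 to 0.66), with 5 of 6 hybrid arrays above it. This did not pass after adjustment over all probe sets (adjusted p = 0.289 in limma). As deposited the difference was 0.13. The way of averaging the parents decided the call: against the mean of the parents' log2 signals, which lies far lower for a gene this different between the inbreds, phb3 was higher in the hybrids by 1.15 (adjusted p = 2.02e-05).

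For aox1 the midparent was 68.8% of the B73 level, and the hybrids were at 57.8% in B73xMo17 and 59.5% in Mo17xB73. The mean hybrid differed from the midparent by -0.24 ± 0.14 (95% interval -0.55 to 0.06; adjusted p = 0.505 in limma), and 5 of 6 hybrid arrays were below it. As deposited the difference was -0.41, and on the log2 mean of the parents it was -0.07. With the floor raised to the 40th percentile all 3 Mo17 and 5 of 6 hybrid arrays of aox1 were at that floor, so the value it gave, -0.29 (adjusted p = 0.0135), is set by the floor and is no measured deficit. The probe set was kept through B73, which also raises the midparent, so its test here is not independent of that choice. Neither aox1 nor phb3 was called in limma, against 1.29% of all probe sets (0.8% higher and 0.494% lower in the hybrids). phb3 had an unadjusted p of 0.0247 and aox1 of 0.11. As deposited 0.782% of all probe sets were called. The inbred arrays used for the midparent are also those on which both genes were chosen.

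CAT3 was chosen on this contrast and is described. Its midparent was 60.8% of the B73 level, and the hybrids were at 37.4% in B73xMo17 and 39.1% in Mo17xB73. All 6 hybrid arrays were below the midparent, and the mean hybrid was at -0.66 ± 0.16 from it on the log2 scale. Their spread was small: the 6 arrays ran from 119 to 135. From the inbreds themselves, the mean hybrid of CAT3 was at -1.39 ± 0.18 from B73 and at 0.90 ± 0.18 from Mo17. For aox1 these distances were -0.78 ± 0.16 and 0.64 ± 0.16, and for phb3 they were -0.51 ± 0.15 and 2.80 ± 0.15. On the log2 scale the mean hybrid was thus nearer to Mo17 for CAT3 and nearer to B73 for phb3, while for aox1 the distances differed in size by less than their errors.

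On a scale on which 0 is the midparent, 1 the B73 mean and -1 the Mo17 mean, the mean hybrid lay at 0.355 for phb3, at -0.327 for aox1 and at -0.575 for CAT3. The hybrid arrays ran from -0.0538 to 0.661 for phb3, from -0.706 to 0.185 for aox1 and from -0.631 to -0.511 for CAT3. The ranges of phb3 and CAT3 did not touch, and that of aox1 overlapped both. For comparison, the 1353 probe sets called between the inbreds with at least a 2-fold difference had a median position of 0.0155 towards their higher parent, with quartiles at -0.171 and 0.211. Of these probe sets, 4.95% lay lower than CAT3, 13.6% lower than aox1 and 84.2% lower than phb3. Among the 810 of them that were higher in B73, as the members were, the shares were 2.84%, 9.63% and 81.7%. The median position of the 810 was 0.0640, with quartiles at -0.105 and 0.263. CAT3 was chosen for its departure from the midparent, and aox1 was kept through B73, which raises its midparent. The shares are therefore descriptions and do not test the positions. Without Mo17 replicate 1 the position of CAT3 was -0.482, and without Mo17 replicate 3 it was -0.649.

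**Figure D2:**
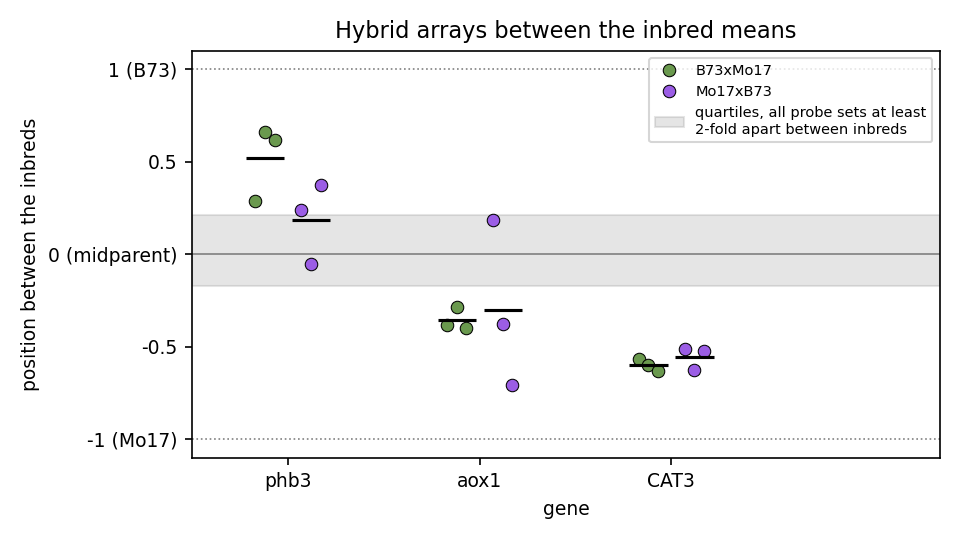
Position of each hybrid array between the inbred means (y axis, no unit; 1 is the B73 mean, 0 the midparent and -1 the Mo17 mean) for phb3, aox1 and CAT3. Points are arrays, black lines are means of 3 arrays, and the grey band spans the quartiles (-0.171 to 0.211) of the 1353 probe sets that differ at least 2-fold between the inbreds, measured towards their higher parent. The CAT3 points are tightly grouped below the band, while those of phb3 and aox1 are scattered.

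The reciprocal hybrids have the same nuclear genes and differ in seed parent, and with it in their mitochondria and plastids, which maize inherits through the seed parent. None of the members was chosen on this contrast, and none was called: the difference B73xMo17 minus Mo17xB73 was 0.31 ± 0.17 for phb3 (95% interval -0.06 to 0.68), -0.06 ± 0.21 for CAT3 (-0.51 to 0.38) and -0.02 ± 0.19 for aox1 (-0.43 to 0.39), each with an adjusted p of 0.99985 in limma. All 3 intervals include 0. As deposited the difference was positive for CAT3 (0.018) and aox1 (0.067). Leaving out the scaling shifted this comparison too: the median of all probe sets was 0.008 scaled and 0.090 as deposited. Of all probe sets tested, 0% were called (0 of 11126 in limma, 288 at an unadjusted p under 0.05; 6, or 0.0539%, were called as deposited). The arrays of the reciprocal hybrids overlapped for all 3 genes, while 9.18% of all probe sets had no overlap.

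The families of the 3 genes were examined next, with the members left out of each count. Among the prohibitins, phb2 and phb4 were also higher in B73, by much less than phb3. The signal of phb2 averaged 2174 ± 54.1 in B73 against 1762 ± 88.0 in Mo17, which differed by 0.30 ± 0.07 on the log2 scale (adjusted p = 0.00323 in limma). That of phb4 was 1222 ± 73.4 against 914 ± 89.4, a difference of 0.42 ± 0.10 (adjusted p = 0.00441), a call that was lost when no probe set was filtered out (0.34, adjusted p = 0.107). For phb1, 2 of 3 probe sets were kept, with differences of -0.08 (adjusted p = 0.505) and -0.18 (adjusted p = 0.738). The third phb1 probe set was not kept and went the other way, at 48.8 ± 10.3 in B73 and 26.0 ± 0.816 in Mo17. The hybrids of phb2 and phb4 were at 0.00 and -0.04 from the midparent (adjusted p = 0.999617 and 0.868).

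Of the other catalases, Cat0, also named cat2, was under the floor on all 12 arrays. cat1 had 3 probe sets. The brightest was lower in B73 (1459 ± 227 against 1929.7 ± 311), opposite to CAT3, by a log2 value of -0.40 ± 0.12 (adjusted p = 0.0155 in limma). It did not pass as deposited (-0.07, adjusted p = 0.84), without Mo17 replicate 1 (-0.28, adjusted p = 0.0617), without B73 replicate 2 (-0.27, adjusted p = 0.0699) or on the arrays of the inbreds alone (-0.41, adjusted p = 0.0588). The next was at 259 ± 19.4 and 268 ± 44.8, a difference of -0.04 (adjusted p = 0.851), and the third, near the floor at 12.9 ± 1.27 and 27.9 ± 11.0, was not kept. Whether the probe sets differ from each other was not tested. The kept probe sets of the superoxide dismutases, which make hydrogen peroxide from superoxide, were not called: sod3 was at 3133 ± 103 in B73 and 3136 ± 249 in Mo17, Sod4A at 3979.5 ± 573 and 3981 ± 131, and sod2 at 2550.4 ± 395 and 2092 ± 521. Their log2 differences were 0.00 (adjusted p = 0.992), -0.01 (adjusted p = 0.944) and 0.30 (adjusted p = 0.153), and sod2 passed as deposited (0.64, adjusted p = 0.0179). A second sod2 probe set, at 23.3 ± 9.63 in B73 and 30.9 ± 17.7 in Mo17, was not kept. The ascorbate peroxidase gene apx differed by -0.23 (adjusted p = 0.402), and the ferritin genes fer1 and fer2, which store iron, by 0.16 (adjusted p = 0.178) and 0.31 (adjusted p = 0.1). As deposited fer2 passed (0.64, adjusted p = 0.0427).

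In all, the antioxidant list held 13 probe sets of 9 genes apart from CAT3, of which 8 were kept. Between the inbreds 0 were called higher and 1 lower in B73 in limma (2 at an unadjusted p under 0.05), where 41% of all probe sets were called. Their median log2 difference was -0.00, against -0.05 for all probe sets. Against the midparent 0 were called in limma, against 1.29% of all probe sets (1 at an unadjusted p under 0.05), with a median of 0.04 against -0.01. A wider antioxidant list, chosen after seeing the data, had 11 kept probe sets, with 1 called higher and 1 lower in B73. The higher call was mtl2 (0.93 ± 0.17, adjusted p = 0.000478 in limma), which also passed as deposited (1.26, adjusted p = 0.00131). A further mtl2 probe set, at 14.1 ± 1.79 in B73 and 13.5 ± 2.23 in Mo17, was not kept. The mitochondrial list held 14 probe sets of 12 genes apart from aox1 and phb3, of which 12 were kept. Of these 5 were called higher and 1 lower in B73, with a median of 0.08, and 6 were not called. A call rate of 6 in 12 is near the 41% of all probe sets. With a wider list, chosen after seeing the data, 4 of 17 were called higher and 2 lower, with a median of -0.02. One of the lower calls was CPN60I, a gene for the mitochondrial chaperonin (-0.53 ± 0.11, adjusted p = 0.00125 in limma). CPN60I did not pass as deposited (-0.20, adjusted p = 0.541). The other chaperonin gene of the wider list, CPN60II, was not called (-0.19, adjusted p = 0.171). The name pdh1 is borne by 2 NCBI genes, 541699 and 732791, each with 1 probe set. In the first list, the 1 called lower was pdh1 of gene 732791 (-0.30, adjusted p = 0.0416 in limma). That of gene 541699 was not called (0.13, adjusted p = 0.187). The lower call and pdh2 (0.25, adjusted p = 0.0413), which also bears the name PDHE1-B, of a pyruvate dehydrogenase subunit, lay close to the threshold. Each lost its call without any of 8 single arrays, with adjusted p up to 0.144 and 0.163, and neither passed as deposited (0.033, adjusted p = 0.936, and 0.58, adjusted p = 0.0746). The gene pgd2 (0.48, adjusted p = 0.000813) entered the list through its synonym pdh2, although its name is that of a phosphogluconate dehydrogenase, which is not a mitochondrial enzyme. The arrays whose removal ended these calls were B73 replicates 1 and 3, Mo17 replicates 1 and 3 and all 3 B73xMo17 arrays for both, with Mo17 replicate 2 for pdh1 and Mo17xB73 replicate 2 for pdh2. Between the reciprocal hybrids 0 probe sets of either first list were called in limma, and 0 at an unadjusted p under 0.05. In the wider mitochondrial list 0 of 17 were called and 1 had an unadjusted p under 0.05. This was CPN60I, at 0.33 ± 0.11 for B73xMo17 minus Mo17xB73 (unadjusted p = 0.00875, adjusted p = 0.99985 in limma).

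The remaining call of the mitochondrial list was ANT-G1. This is 1 of 2 genes named in the annotation for the translocator that exchanges ADP for ATP across the inner mitochondrial membrane. Its signal was 4124, 3142 and 4159 in B73 (3808 ± 577) and 1498, 1697 and 1734 in Mo17 (1643 ± 127). It was 3066, 3706 and 3953 in B73xMo17 (3575 ± 458) and 3785, 3616 and 3597 in Mo17xB73 (3666 ± 104). All hybrid arrays were thus in the range of B73 or just under it, and far above Mo17. ANT-G1 was higher in B73 by 1.20 ± 0.12 (adjusted p = 1.8e-06 in limma) and higher in the hybrids than the midparent by 0.41 ± 0.09 (adjusted p = 0.0345), the 1 such call of the list. The second result was lost as deposited (0.25, adjusted p = 0.99), with no filter (0.39, adjusted p = 0.223), with no intensity trend (adjusted p = 0.0598) and without any of 8 single arrays (0.32 to 0.46, adjusted p up to 0.104), namely B73 replicates 2 and 3, Mo17 replicate 2, B73xMo17 replicates 2 and 3 and all 3 Mo17xB73 arrays. The other translocator gene, ANT-G2, was at 3261 ± 215 in B73 and 3178 ± 38.1 in Mo17 and differed by 0.04 (adjusted p = 0.73). The porin gene vdac2 of the outer membrane differed by -0.01 (adjusted p = 0.972), and rf2, a mitochondrial aldehyde dehydrogenase gene known from fertility restoration, by -0.14 (adjusted p = 0.283).

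**Figure D3:**
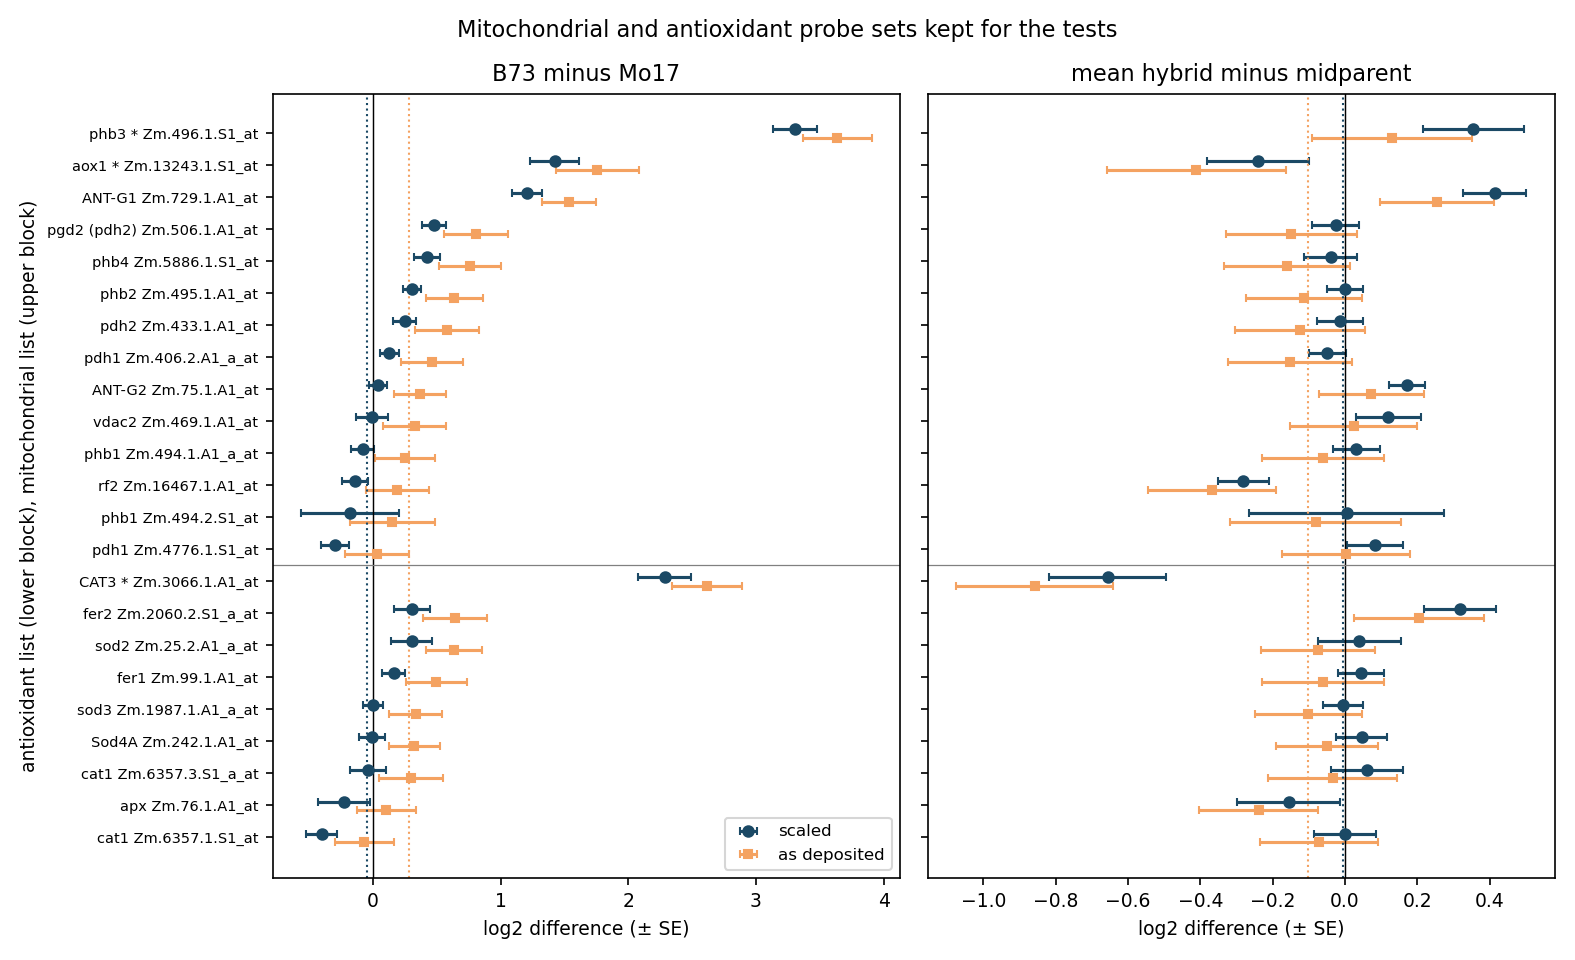
Log2 difference ± SE (x axes) of each kept probe set of the mitochondrial list (above the grey line) and the antioxidant list (below), between B73 and Mo17 (left) and between the mean hybrid and the midparent (right). Circles are scaled and squares deposited values, dotted lines are the medians of all probe sets, and asterisks mark phb3, aox1 and CAT3. These 3 and ANT-G1 lie above 1 in the left panel, and the other probe sets lie within 1 of 0 there.

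Over the 12 arrays, the named probe sets with the profile most like that of phb3 were those of HMT-2 (Pearson r = 0.992), eif7 (0.982) and CesA-4 (0.981), out of 844 probe sets with a usable gene symbol. The 3 most like CAT3 were ss1 (0.972), kin15 (0.958) and expA4 (0.957). The 3 most like aox1 were AGAMOUS (0.957), m1 (0.951) and CAT3 itself (0.947). These coefficients are descriptions over arrays that share 4 genotypes, so they rest mainly on the differences between genotypes. The mean signal of HMT-2, for example, fell from 799 in B73 over 605 in B73xMo17 and 539.8 in Mo17xB73 to 109 in Mo17, an order shared with phb3. ss1 averaged 425 in B73 and 269 in Mo17, and its hybrids, at 296 and 312, were nearer to Mo17 as for CAT3.

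**Figure D4:**
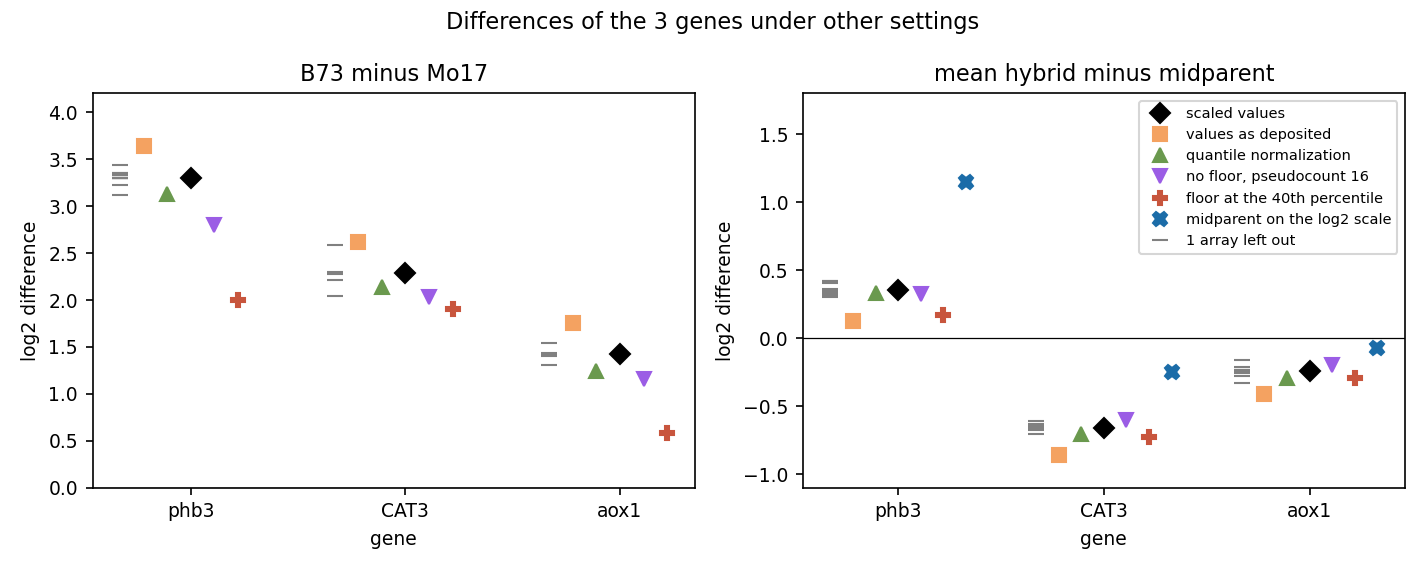
Log2 difference (y axes) of phb3, CAT3 and aox1 between B73 and Mo17 (left) and between the mean hybrid and the midparent (right) under other settings; grey dashes are fits with 1 array left out. All values on the left are above 0, and on the right those of phb3 are above 0 and those of CAT3 and aox1 below 0 in every setting drawn, with the largest shift for phb3 when the midparent is taken on the log2 scale (1.15 in place of 0.35).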

How the data were processed

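Per the submitters' processing notes the deposited values are MAS5 signals, 1 linear intensity per probe set and array, on a single-colour Affymetrix maize array hybridised with biotin-labelled RNA (8 ug per array). The sources used here give no MAS5 version or scaling target. The 113 AFFX controls were left out. Of the other 17621 probe sets, 1452 had 1 gene in the platform annotation, 1 had several and 16168 had none there. The genes of 1377 were in the RefSeq table (Zm-B73-REFERENCE-NAM-5.0), which was used for names only.

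Each array was scaled to a common median, signals were raised to the floor (the median of the arrays' 20th percentiles) and taken to log2. Kept were 11126 probe sets that exceeded the 40th percentile of the array on 3 or more of 12 arrays. limma 3.58.1 under R 4.3.3 estimated each genotype's mean over all 12 arrays together (eBayes with intensity trend, 8 residual and 5.23 prior degrees of freedom). For the values as deposited the prior degrees of freedom were infinite. There the spread of each probe set was taken from the intensity trend alone, so those adjusted p rest on another estimate of spread. Fitted parental signals were averaged on the linear scale for the midparent, then taken to log2, with SE by the delta method. Tests were two-sided and moderated, with Benjamini-Hochberg adjustment over all kept probe sets, and a call is an adjusted p under 0.05. The number of arrays limits the precision. The method was tested on simulated data.

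The members and gene lists were chosen with earlier results of these data known. The annotation tables hold no gene descriptions, so the lists were matched by exact symbol or synonym. Named were the members, the other catalase, superoxide dismutase, ascorbate peroxidase, alternative oxidase and prohibitin probe sets, up to 6 further called probe sets per list, and the 3 probe sets most correlated with each member. fer1, fer2, mtl2, ANT-G2, vdac2, rf2, CPN60I and CPN60II were added after their values were seen. Alternatives were the values as deposited, quantile normalization, other filters, floors and eBayes settings, a replicate block, a log2 midparent, subsets of genotypes and leaving out each array.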

Additional observations from a re-analysis of the deposited data

How the results depend on the processing

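Over 460 repeats of the results on the members, the lists and the counts of all probe sets under other settings, 409 kept their direction and side of the threshold or, for values and counts without a test, moved by less than the replicate SD or by up to 1.5 times. As deposited, 2846 probe sets were called between the inbreds (4561 scaled), 87 against the midparent (144 scaled) and 6 between the reciprocal hybrids, and phb3 and aox1 differed between the inbreds by 3.64 and 1.76. The antioxidant list then had 2 calls between the inbreds and the mitochondrial list 0 against the midparent, the position of CAT3 was -0.629, and the reciprocal differences of aox1 and CAT3 changed sign to 0.067 and 0.018, as did that of pdh1 between the inbreds, to 0.033. With quantile normalization the antioxidant list had 2 calls, and with no filter 2, while 36 probe sets were called against the midparent and 0 of the mitochondrial list. With a floor at the 40th percentile, phb3 and aox1 differed between the inbreds by 2.00 and 0.58, which follows from raising the low Mo17 values; 388 probe sets and 2 of the mitochondrial list were called against the midparent, and the position of CAT3 was -0.689. For aox1 all 3 Mo17 and 5 of 6 hybrid arrays were then at the floor, so that its difference from the midparent (-0.29, which passed) and its position (-0.923) are set by the floor. With no floor and a pseudocount of 16 the parental differences were 2.80 and 1.16. Without the intensity trend the mitochondrial list had 0 calls against the midparent. A log2 midparent gave 806 calls, 2 of them in the mitochondrial list, with phb3 at 1.15 and CAT3 at -0.25. On the inbreds alone the antioxidant list had 0 calls, and with wider lists, chosen after seeing the data, it had 2, while the mitochondrial list had 6 (4 higher and 2 lower). Beyond scaling and constructions named, no cause was tested.

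Leaving out 1 array gave 68 to 166 calls against the midparent and 0 to 2 between the reciprocal hybrids (in limma), 0 to 2 antioxidant calls between the inbreds and 0 to 1 antioxidant and 0 to 1 mitochondrial calls against the midparent. The position of CAT3 ran from -0.649 to -0.482, and the reciprocal difference of aox1 from -0.17 to 0.16, changing sign without Mo17xB73 replicate 1 (0.16) or B73xMo17 replicate 3 (0.0016). The aox1 probe set was removed by the stricter filter at the 60th percentile, and gives no value there.

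With the replicate number as a block, CAT3 between the inbreds had an adjusted p of 1.3e-06, phb3 and aox1 against the midparent 0.309 and 0.469, and 4739, 165 and 0 probe sets were called in the 3 comparisons. The block changed no call of a member; pdh1 and pdh2 did not pass (adjusted p = 0.0501 and 0.0533). Deviations of same-numbered arrays correlated at -0.0889 to 0.459, with 11 of 18 pairs over 0.1, and those of differently numbered arrays at -0.461 to 0.191, with 6 of 36 over 0.1. Same-numbered arrays thus correlated more, but not in every pair, and 7 of 12 arrays correlated best with their own number. The sample records give 3 collection days, but the labels do not say that a replicate number marks a shared day. For that reason the main fit had no block. Whether same-numbered arrays shared a day was not tested.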
